A study of Arabidopsis thaliana with 14 samples.

Results

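The distal upstream flank of *FLC* is the stretch of DNA from about 1.0 to 2.5 kb upstream of the transcription start site (TSS) of the gene, which lies on the minus strand of chromosome 5. Its members were all sequenced fragments whose midpoint fell in that stretch, with distances counted from the TSS in TAIR10 coordinates. The flank spans 1501 bp of the 9568 bp captured around the gene. It held 150878 of the 1039765 fragment entries, where an entry is a distinct fragment counted once in each library that contained it. Micrococcal nuclease sequencing (MNase-seq) with capture baits for the locus was performed on whole *Arabidopsis thaliana* seedlings, in 4 groups and 14 libraries. These were *vrn1-4* FRI after cold (4 libraries), *vrn1-4* FRI in the warm (3), WT FRI after cold (4) and WT FRI in the warm (3). WT FRI is Col-0 carrying an active *FRIGIDA* allele from the accession San Feliu-2, and *vrn1-4* FRI adds a mutation of *VRN1* to it, so that every group had active *FRIGIDA*. All seedlings grew for 10 days at 22 °C, and those of the cold groups then spent 1 more week at 5 °C. The cold seedlings were therefore also older, and age and temperature cannot be told apart. In every group 1.5 g of seedlings was used and chromatin was digested with 10 U of MNase for 30 min. Whole seedlings mix cell types, so fewer cells with a nucleosome at a site and a weaker nucleosome in every cell cannot be told apart.

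MNase cuts the linker DNA between nucleosomes and trims the ends that are left, so that a protected fragment of nearly nucleosomal length marks where a histone octamer sat. *FLC* encodes a MADS-box repressor of flowering that FRIGIDA activates and that prolonged cold silences through Polycomb proteins. VRN1 is a DNA-binding protein of the plant B3 family that is needed to keep *FLC* silenced after cold and binds DNA without a strict sequence preference. Stiff runs of A or T are known to be poor substrates for nucleosomes, and MNase itself prefers to cut beside A and T.

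The flank lies almost wholly between genes. Its last 12 bp overlap the exon at the 3′ end of the next gene upstream, AT5G10150, annotated on the same strand from 3181938 to 3184110. All 237 of the *FLC* capture baits, of 80 bases each, were identical to the RefSeq TAIR10.1 sequence at their stated positions, and 38 of them overlapped the flank. A and T made up 69.6% of the flank, 67.1% of the captured region and 64.1% of chromosome 5. The following sequences, from that RefSeq genome, are given 5′ to 3′ on the *FLC* strand. The first set shows the 3 fragments found most often in the flank, with fragment 1 over the midpoint peak named n3 below and fragments 2 and 3 over the peak n2. The other set shows 4 bins of 100 bp in which the genotypes differed most or few fragments had their midpoint. Capitals mark runs of at least 6 A or T and alternating TA stretches of at least 8 bp.
Fragment 1, chr5:3180762-3180905, minus strand: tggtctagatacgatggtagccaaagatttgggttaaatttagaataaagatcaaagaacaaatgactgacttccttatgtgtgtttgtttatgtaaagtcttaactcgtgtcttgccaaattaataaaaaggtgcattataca
Fragment 2, chr5:3180501-3180642, minus strand: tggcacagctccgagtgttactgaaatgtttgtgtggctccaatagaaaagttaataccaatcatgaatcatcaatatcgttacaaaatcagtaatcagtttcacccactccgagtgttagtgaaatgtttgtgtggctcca
Fragment 3, chr5:3180519-3180664, minus strand: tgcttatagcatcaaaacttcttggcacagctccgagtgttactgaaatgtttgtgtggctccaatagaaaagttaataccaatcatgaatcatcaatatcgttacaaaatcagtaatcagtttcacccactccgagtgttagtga
Bin of 1201 to 1300 bp upstream, chr5:3180649-3180748, minus strand: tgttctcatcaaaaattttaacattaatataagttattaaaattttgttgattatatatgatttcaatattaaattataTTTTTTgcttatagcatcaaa
Bin of 2001 to 2100 bp upstream, chr5:3181449-3181548, minus strand: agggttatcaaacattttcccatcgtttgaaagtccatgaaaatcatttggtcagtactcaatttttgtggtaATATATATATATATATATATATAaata
Bin of 2101 to 2200 bp upstream, chr5:3181549-3181648, minus strand: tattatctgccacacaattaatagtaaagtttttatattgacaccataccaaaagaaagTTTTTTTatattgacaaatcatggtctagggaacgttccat
Bin of 2301 to 2400 bp upstream, chr5:3181749-3181848, minus strand: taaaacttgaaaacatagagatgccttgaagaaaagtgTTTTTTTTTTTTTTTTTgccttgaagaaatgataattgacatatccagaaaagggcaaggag

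The deposited value of a fragment is its share of all *FLC* fragments of 100 to 150 bp in the library, so only shares within *FLC* can be compared and the depth of a library is unknown. The number of distinct fragments gives a guide to how finely each library sampled the flank. It was 12315 to 18303 in *vrn1-4* FRI cold, 8941 to 11799 in *vrn1-4* FRI warm, 6782 to 15746 in WT FRI cold, and 2000, 4059 and 13442 in the WT FRI warm libraries. The WT FRI warm group, the baseline of both warm comparisons, thus held the 2 libraries with the fewest distinct fragments in the flank. The deposited table numbers the libraries of a group as biological replicates.

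WT FRI cold replicate 1 stood apart from its group. Across 150 bins of 10 bp its midpoint profile in the flank correlated with the other WT FRI cold libraries at r of 0.830 to 0.867, whereas those 3 correlated with each other at 0.980 to 0.992. Its r with the *vrn1-4* FRI cold libraries was 0.862 to 0.939, and with the *vrn1-4* FRI warm libraries 0.900 to 0.942. In the flank it was thus more like most libraries of the other genotype than like its own group. Outside the flank, over 82 bins of 100 bp on the log2 scale, it correlated with the other WT FRI cold libraries at r of 0.967 to 0.978, whereas those 3 correlated with each other at 0.988 to 0.997. There its r with the *vrn1-4* FRI cold libraries was 0.918 to 0.982, and with the *vrn1-4* FRI warm libraries 0.920 to 0.963. Its median r was 0.972 with *vrn1-4* FRI cold and 0.970 with its own group. Its label was kept, and the main values of the comparisons that include it are also given without it. The library was singled out from these same flank profiles. A bin that passes only without it is therefore a description and gives no independent support for a difference.

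Fragment midpoints gathered into 9 peaks of the mean profile, which may mark favoured nucleosome positions. Whether each peak is a single nucleosome position was not tested. They were named n1 to n9 from the TSS outward and lay 1011, 1131, 1365, 1564, 1755, 1879, 2104, 2301 and 2491 bp upstream. Neighbouring peaks were 120 to 234 bp apart. The spacing of the peaks was uneven rather than that of a regular ladder. The spacings of 120 bp (n1 to n2) and 124 bp (n5 to n6) are shorter than the DNA wrapped by a nucleosome plus a linker. Peaks could not be called closer together than 120 bp, and the spacing of n1 to n2 stood at that limit. The spacing of n5 to n6 is uncertain as well, since in single libraries the highest point near n5 lay 1760 to 1805 bp upstream. A further rise between n3 and n4 was closer to n4 than the minimum of 120 bp and was not counted.

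**Figure D1:**
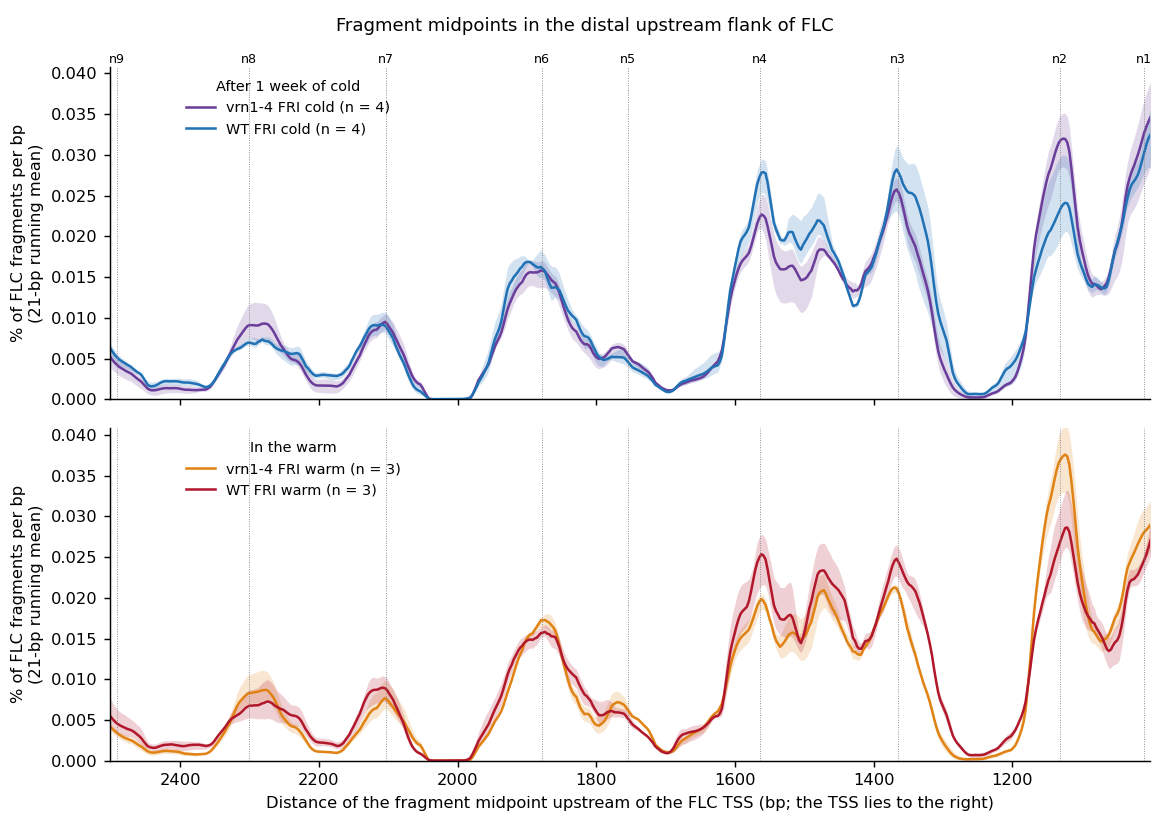
Midpoint density along the flank, with distance upstream of the TSS on the x axis (the TSS is to the right) and the percentage of *FLC* fragments per bp on the y axis, after a 21-bp running mean. Lines are group means, shaded bands run from the lowest to the highest library and dotted lines mark the 9 peaks; few midpoints fell near 1260 and 2042 bp.

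The peak positions varied between the 14 libraries to differing degrees. Within 50 bp of each peak, the highest point moved by 7 bp between libraries at n4, by 11 bp at n2 and by 19 bp at n7. At n5, n6 and n8 it moved by 45, 62 and 56 bp, and at n5 it reached the edge of the window in some libraries. At n5 it lay farther out than the peak of the mean profile in every library, at 1760 to 1805 bp. The peaks n1 and n2 lie on a tandem duplication. A copy of 89 bp from 998 to 1086 bp upstream aligned to one of 96 bp from 1091 to 1186 bp upstream, with 83 identical bases in 96 aligned columns (86.5%). Fragments 2 and 3, which share 124 bp, each contain the whole farther copy and reach into the nearer one. Whether reads were assigned to the wrong copy was not tested.

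The 1501 bp of the flank are 15.7% of the captured region. The share of *FLC* fragments in it was 14.2%, 14.7%, 14.8% and 13.1% in the *vrn1-4* FRI cold libraries, 12.90%, 14.04% and 13.45% in *vrn1-4* FRI warm, 14.4%, 15.2%, 15.1% and 14.7% in WT FRI cold, and 14.2%, 14.3% and 14.6% in WT FRI warm. All 14 libraries thus lay within a narrow band. Per bp the flank held 0.893 of the density of the rest of the captured region, and the ratio was below 1 in 14 of 14 libraries (mean log2 ratio −0.16 ± 0.08, SD, n = 14; two-sided exact sign-flip permutation p = 0.000122, the smallest that 14 libraries allow). This p-value measures only how repeatably the ratio fell below 1 across libraries. All libraries were captured with the same baits, and a bias shared by all of them was not tested. The direction of the ratio depended on the part of *FLC* that the flank was set against. The flank was denser than the promoter from 200 to 1000 bp upstream, by 2.25-fold in the mean and in all 14 libraries, and sparser than the stretch from the TSS to the far end of the captured region (ratio 0.838). The outermost 100 bp contributed to the low density, since without them the ratio was 0.938 and was below 1 in 12 of 14 libraries.

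None of the comparisons of the flank share passed its test. The *vrn1-4* FRI share averaged 13.5% ± 0.566 in the warm (SD, n = 3), against 14.3% ± 0.211 in WT FRI (SD, n = 3), a difference of −0.868 percentage points (two-sided exact permutation p = 0.1, the smallest that 3 against 3 allow). After cold *vrn1-4* FRI averaged 14.2% ± 0.782 and WT FRI 14.9% ± 0.361 (SD, n = 4 each), a difference of −0.677 points (exact p = 0.143; −0.813 without WT FRI cold replicate 1). The cold groups exceeded the warm groups by 0.717 points in *vrn1-4* FRI (exact p = 0.257) and by 0.526 points in WT FRI (exact p = 0.114; 0.663 points without WT FRI cold replicate 1, exact p = 0.1). The difference between these changes was 0.191 points (permutation of genotype labels within temperature over 1400 arrangements, p = 0.806). Adjusted over these 5 tests, the p-values were 0.238 or more. The stretch up to 1600 bp upstream held most of the flank's fragments, 8.59% to 10.51% of all *FLC* fragments, against 4.11% to 4.91% in the stretch beyond it, and no group difference passed in either.

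**Figure D2:**
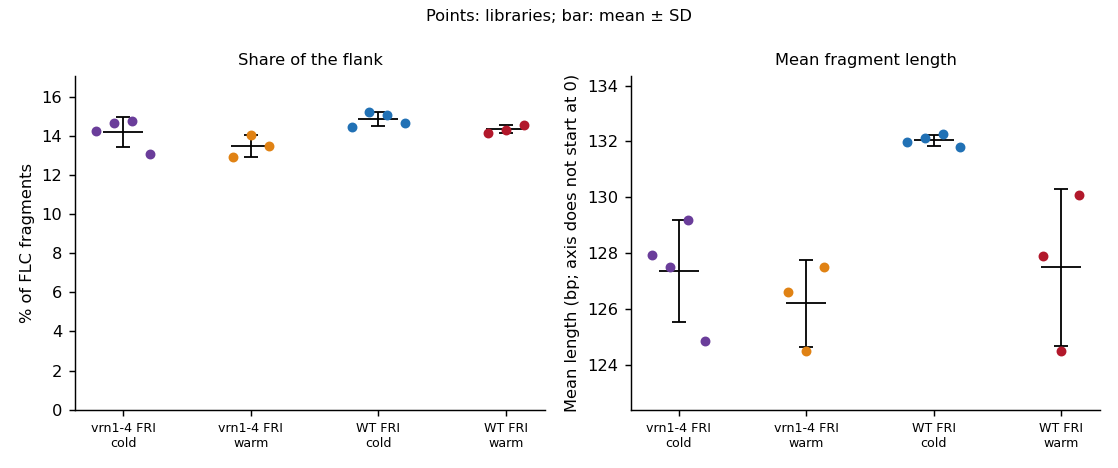
Share of *FLC* fragments in the flank in percent (left) and mean length of the flank fragments in bp (right, on an axis that does not start at 0), by group. Points are libraries and bars are the mean ± SD; the shares lie between 12.9% and 15.2%, and the 4 WT FRI cold libraries lie at 131.8 to 132.3 bp, above the other 10.

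The flank was then divided into 15 bins of 100 bp. The bin nearest to the TSS and that at n3 held the most midpoints and those of 1201 to 1300 and 2001 to 2100 bp the fewest. The bin nearest to the TSS, which ends 1100 bp upstream and covers n1, held 2.27%, 2.38%, 2.14% and 1.86% of *FLC* fragments in *vrn1-4* FRI cold, 1.82%, 2.19% and 2.08% in *vrn1-4* FRI warm, 1.97%, 2.05%, 2.19% and 2.07% in WT FRI cold, and 2.02%, 1.91% and 1.85% in WT FRI warm. All 4 groups overlapped there.

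Between the genotypes, midpoints of *vrn1-4* FRI were fewer in the gap before n3 and at n4 and more frequent around n2 at both temperatures. In the warm they were also fewer at n3 and in the bins of 2101 to 2200 and 2301 to 2400 bp. After cold they were also more frequent from 2001 to 2100 bp. In the warm, 6 of the 15 bins passed an adjusted p of 0.05 (limma on log2 of share plus 0.0001, Benjamini-Hochberg over the 97 *FLC* bins). Of these, 1 was higher and 5 were lower in *vrn1-4* FRI. Of all 97 bins, 38.1% passed in this comparison, 9.28% higher and 28.9% lower, so the flank's 40% was near the rate for the whole locus. In the cold 4 of the 15 bins passed, 2 higher and 2 lower, against 46.4% of all bins, 15.5% higher and 30.9% lower. Over the flank the median log2 difference was −0.15 for the warm libraries, beside −0.10 over all bins. For the cold libraries it was −0.12, beside −0.13.

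These counts depended on single libraries. In the warm, 6 flank bins and 37 of the 97 *FLC* bins passed with all libraries. The flank count was 2 (29 of 97) without *vrn1-4* FRI warm replicate 2, 2 (25 of 97) without *vrn1-4* FRI warm replicate 3, 4 (25 of 97) without *vrn1-4* FRI warm replicate 1, 3 (30 of 97) without WT FRI warm replicate 2 and 2 (26 of 97) without WT FRI warm replicate 3. In the cold, 4 flank bins and 45 of the 97 passed with all libraries. The flank count was 0 (28 of 97) without *vrn1-4* FRI cold replicate 1, 2 (40 of 97) without *vrn1-4* FRI cold replicate 2 and 2 (30 of 97) without *vrn1-4* FRI cold replicate 4. It was 9 (57 of 97, 58.8%) without WT FRI cold replicate 1, 1 (28 of 97) without WT FRI cold replicate 2 or 4, and 0 (27 of 97) without WT FRI cold replicate 3. The 9 included the 4 bins called with all libraries. Calls thus became fewer over the whole locus too in each of these fits except that without WT FRI cold replicate 1, where they became more numerous.

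**Figure D3:**
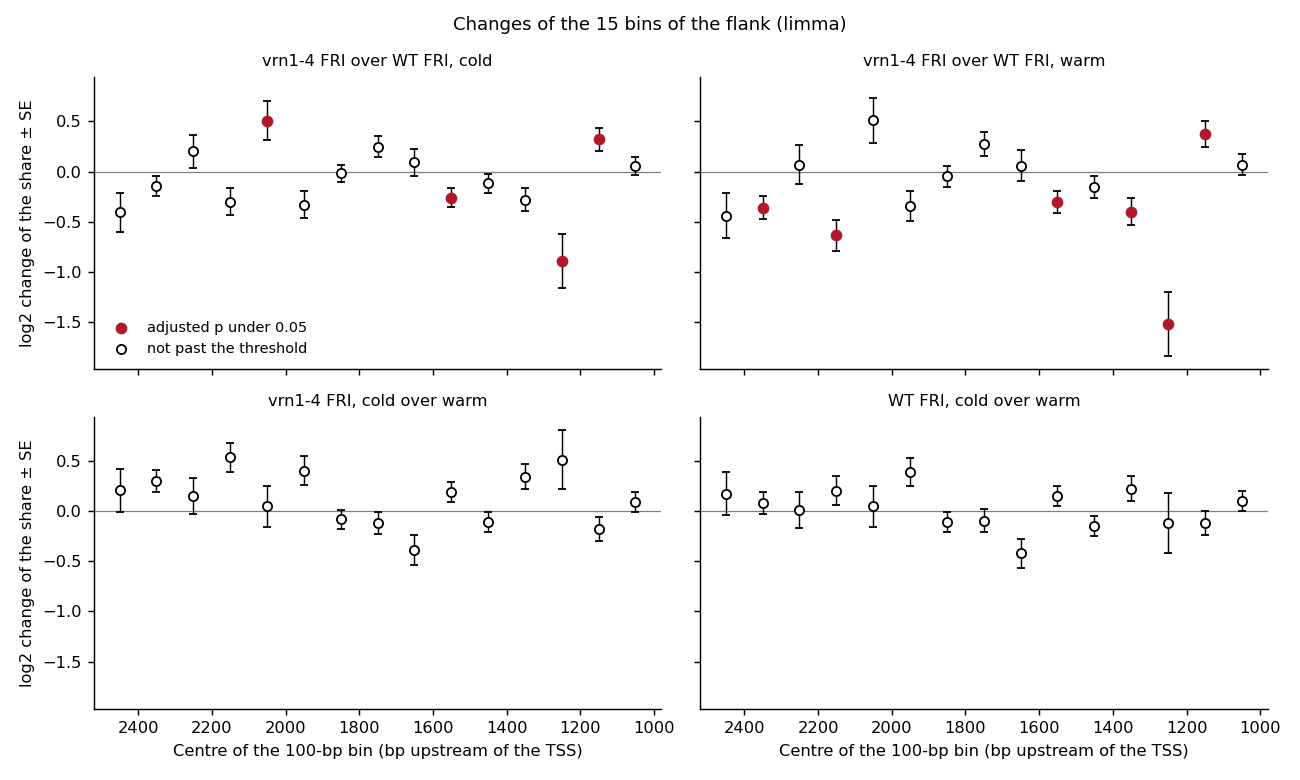
log2 difference of the share in each of the 15 bins of the flank ± SE (limma), against the centre of the bin in bp upstream of the TSS. Filled points passed an adjusted p of 0.05; in both genotype panels the bin of 1201 to 1300 bp lies lowest, at −0.89 in the cold and −1.52 in the warm, and neither cold panel has a filled point.

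The largest difference lay in the gap between n2 and n3, from 1201 to 1300 bp upstream. In the warm this bin held 0.0203%, 0.0495% and 0.0445% of *FLC* fragments in *vrn1-4* FRI, against 0.101%, 0.144% and 0.127% in WT FRI. Every *vrn1-4* FRI library was below every WT FRI library (log2 difference −1.52, SE 0.32, limma adjusted p = 0.00284). After cold it held 0.0503%, 0.0638%, 0.0883% and 0.0330% in *vrn1-4* FRI and 0.0781%, 0.162%, 0.126% and 0.0979% in WT FRI. There the groups overlapped, through *vrn1-4* FRI cold replicate 3 and WT FRI cold replicate 1 (log2 difference −0.89, SE 0.27, limma adjusted p = 0.021; −1.05 without WT FRI cold replicate 1). The warm call held in all 14 fits that left out 1 library and in 8 of 8 other settings, and the cold call in 10 of 14 and 6 of 8. As this is the emptiest bin of the flank, with a mean of 0.0842%, the values rest on few fragments and the added 0.0001 makes the log2 differences too small. Its sequence, shown above, is 85% A and T, the highest of the 15 bins, and 0.296% of all 100-bp windows of the captured region were as rich.

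At the next bin, 1301 to 1400 bp, which covers n3, the shares were 1.53%, 1.60% and 1.56% in *vrn1-4* FRI warm and 2.10%, 1.90% and 2.21% in WT FRI warm. The groups did not overlap (log2 difference −0.40, SE 0.13, limma adjusted p = 0.0315), and the call held in 9 of 14 fits without 1 library. After cold the bin held 1.86%, 2.15%, 2.10% and 1.86% in *vrn1-4* FRI, against 1.86%, 2.66%, 2.71% and 2.55% in WT FRI, and WT FRI cold replicate 1 alone fell among the *vrn1-4* FRI libraries. The cold difference of −0.28 missed the threshold (limma adjusted p = 0.0583), and it was −0.41 and passed without that library.

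On the TSS side of the gap the order was the other way round. The bin of 1101 to 1200 bp, which covers n2, held 2.15%, 2.60% and 2.43% in *vrn1-4* FRI warm and 2.08%, 1.73% and 1.72% in WT FRI warm. It held 2.29%, 2.29%, 1.98% and 1.91% in *vrn1-4* FRI cold and 1.98%, 1.52%, 1.61% and 1.68% in WT FRI cold. The shares were higher in *vrn1-4* FRI in the warm (log2 difference 0.38, SE 0.13, limma adjusted p = 0.0333) and in the cold (0.32, SE 0.11, limma adjusted p = 0.0326), where WT FRI cold replicate 1 lay among the *vrn1-4* FRI values. Without that library the cold difference was 0.40 (limma adjusted p = 0.00891). The warm call held in 10 of 14 fits without 1 library and the cold call in 9. When each distinct fragment was counted once, the warm difference was −0.04.

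Around n4, from 1501 to 1600 bp, the bin held 1.60%, 1.65% and 1.64% in *vrn1-4* FRI warm and 1.77%, 2.21% and 2.09% in WT FRI warm. After cold it held 1.90%, 1.86%, 2.05% and 1.66% in *vrn1-4* FRI and 2.05%, 2.36%, 2.30% and 2.25% in WT FRI. The bin was lower in *vrn1-4* FRI in the warm (log2 difference −0.30, SE 0.11, limma adjusted p = 0.0399) and in the cold (−0.26, SE 0.09, limma adjusted p = 0.0364), where only the highest *vrn1-4* FRI and the lowest WT FRI library met. Without WT FRI cold replicate 1 the cold difference was −0.30 (limma adjusted p = 0.0177). The warm call held in only 4 of 14 fits without 1 library and the cold call in 8. With each distinct fragment counted once, the warm difference was −0.0018 and the cold difference 0.04.

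Farther out, the bin of 2101 to 2200 bp covered the maximum of n7 and its distal side. It held 0.424%, 0.293% and 0.333% in *vrn1-4* FRI warm and 0.451%, 0.602% and 0.591% in WT FRI warm. All *vrn1-4* FRI values were below all WT FRI values (log2 difference −0.64, SE 0.15, limma adjusted p = 0.00508), and the call held in all 14 fits without 1 library. After cold the bin held 0.453%, 0.501%, 0.590% and 0.494% in *vrn1-4* FRI and 0.557%, 0.713%, 0.648% and 0.603% in WT FRI, where the difference of −0.30 did not pass (limma adjusted p = 0.0754). Without WT FRI cold replicate 1 the cold difference was −0.36 and passed (limma adjusted p = 0.0475).

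The edge between this bin and the next one toward the TSS cuts n7. Within 50 bp of n7 the share was 0.661% in *vrn1-4* FRI cold and 0.654% in WT FRI cold (exact permutation p = 0.971). In the warm it was 0.526% in *vrn1-4* FRI and 0.617% in WT FRI (exact permutation p = 0.3). On the TSS side of that edge the bin of 2001 to 2100 bp held more *vrn1-4* FRI midpoints. It held 0.272%, 0.184% and 0.171% in *vrn1-4* FRI warm and 0.112%, 0.159% and 0.157% in WT FRI warm, groups that did not overlap (log2 difference 0.51, SE 0.22, limma adjusted p = 0.0845). After cold it held 0.19996%, 0.177%, 0.225% and 0.255% in *vrn1-4* FRI and 0.187%, 0.180%, 0.116% and 0.116% in WT FRI (0.51, SE 0.19, limma adjusted p = 0.0418), with the groups overlapping at their edges. These midpoints lay in the distal part of the bin, since the part from 2001 to 2050 bp held at most 0.00295% in any library. The cold call was lost in 6 of the 14 fits without 1 library. The log2 difference was 0.62 on leaving out WT FRI cold replicate 1 (limma adjusted p = 0.0228). It was −0.35 among fragments of 140 to 150 bp, a setting chosen after seeing the data.

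The bin of 2301 to 2400 bp, on the distal side of n8, held 0.316%, 0.268% and 0.259% in *vrn1-4* FRI warm and 0.319%, 0.368% and 0.406% in WT FRI warm. The groups were separate but close (log2 difference −0.36, SE 0.12, limma adjusted p = 0.0253), and the call held in 10 of 14 fits without 1 library. After cold it held 0.314%, 0.329%, 0.368% and 0.379% in *vrn1-4* FRI and 0.362%, 0.389%, 0.402% and 0.383% in WT FRI, a difference of −0.14 (limma adjusted p = 0.250). The genotype differences of the cold and of the warm libraries, which share no library, had the same sign in 15 of 15 bins of the flank and in 85 of 97 bins of *FLC*, 87.6%.

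**Figure D4:**
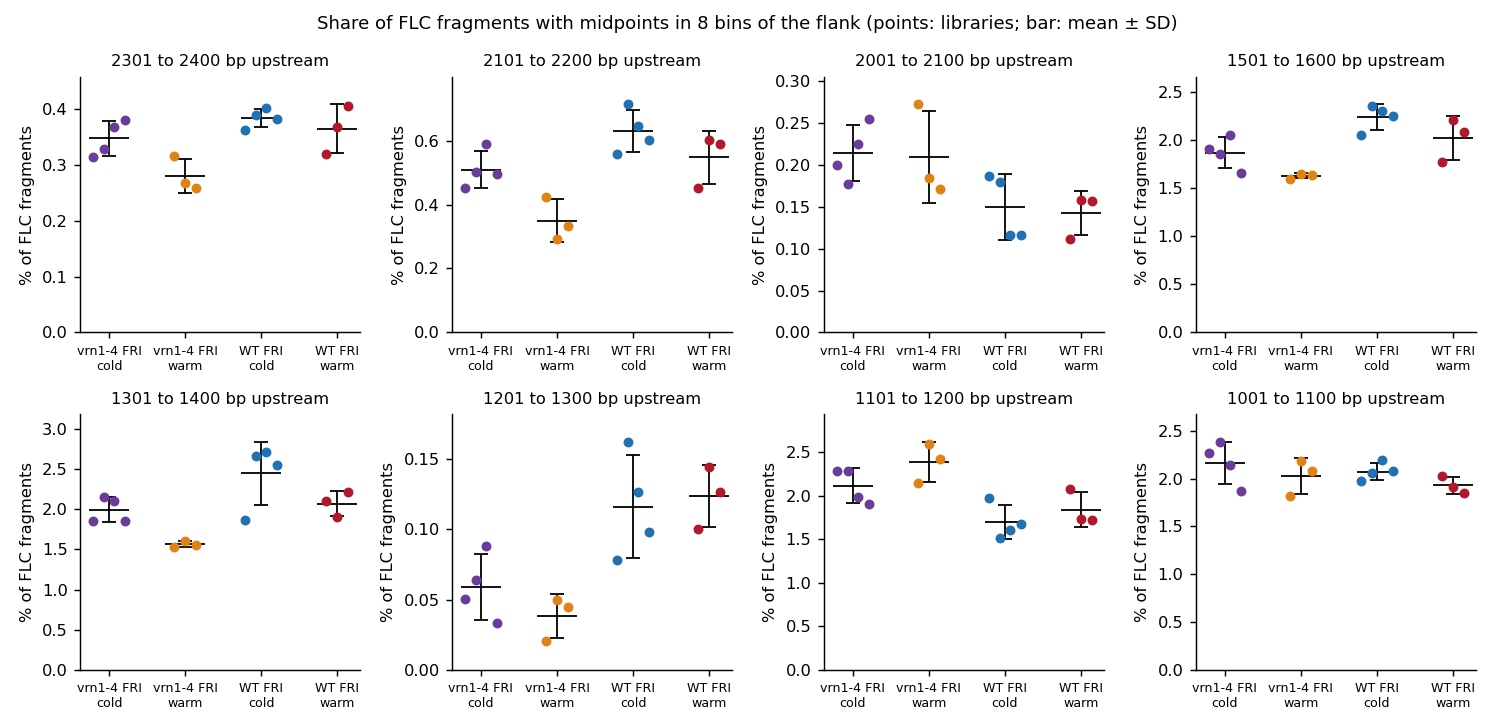
Share of *FLC* fragments in percent in the 8 bins named, by group, with a point for each library and bars for the mean ± SD. From 1201 to 1300 bp all 3 *vrn1-4* FRI warm points lie under 0.05% and all 3 WT FRI warm points at 0.101% or above; from 1301 to 1400 bp 1 WT FRI cold point, replicate 1, lies with the *vrn1-4* FRI libraries.

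After 1 week of cold no bin of the flank passed the test in either genotype. In *vrn1-4* FRI 5 of 15 bins had an unadjusted p under 0.05 and the smallest adjusted p was 0.157, while 0% of all 97 bins passed (limma). In WT FRI 2 of 15 had an unadjusted p under 0.05 and the smallest adjusted p was 0.0884, while 4.12% of all bins passed (limma). The bin of 1601 to 1700 bp, between n4 and n5, held 0.297%, 0.304%, 0.276% and 0.294% in *vrn1-4* FRI cold and 0.352%, 0.401% and 0.405% in *vrn1-4* FRI warm, a log2 difference of −0.39 (limma adjusted p = 0.204). It held 0.385%, 0.219%, 0.248% and 0.267% in WT FRI cold and 0.383%, 0.387% and 0.341% in WT FRI warm, a log2 difference of −0.42 (SE 0.15, limma adjusted p = 0.0884). Of the WT FRI cold libraries, only replicate 1 reached the warm level.

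Without WT FRI cold replicate 1, which was singled out from these same data, the picture of the cold comparison in WT FRI changed. Then 3 of the 15 bins passed, against 14.4% of all bins. The bin of 1601 to 1700 bp was lower after cold (log2 difference −0.58, limma adjusted p = 0.0049), and those of 1301 to 1400 bp (0.35, adjusted p = 0.0407) and 1901 to 2000 bp (0.46, adjusted p = 0.0482) were higher. In *vrn1-4* FRI, whose libraries were unchanged but shared the estimate of the spread, 3 bins then passed, against 6.19% of all bins. These were 1301 to 1400 bp (log2 difference 0.34), 1601 to 1700 bp (−0.39) and 2101 to 2200 bp (0.54), each with a limma adjusted p of 0.0472. With WT FRI cold replicate 1 kept, leaving out *vrn1-4* FRI warm replicate 1 gave 1 call in *vrn1-4* FRI. The cold changes of the genotypes, which share no library, had the same sign in 14 of 15 bins of the flank and in 74.2% of the 97 bins. For the difference of the cold changes between genotypes, 0 of the 15 bins passed in limma, 0 had an unadjusted p under 0.05, and 0 of the 97 bins passed.

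The length of the flank fragments separated the WT FRI cold libraries from the rest. Their mean lengths were 132.0, 132.1, 132.3 and 131.8 bp, against 127.9, 124.5 and 130.1 bp in WT FRI warm. They were 127.9, 127.5, 129.2 and 124.9 bp in *vrn1-4* FRI cold and 126.6, 124.5 and 127.5 bp in *vrn1-4* FRI warm. WT FRI cold exceeded WT FRI warm by 4.55 bp and *vrn1-4* FRI cold minus WT FRI cold was −4.66 bp (two-sided exact permutation p = 0.0286 for both, the smallest these group sizes allow, and 0.0571 adjusted over 4 comparisons). In *vrn1-4* FRI cold exceeded warm by 1.17 bp (exact p = 0.371). The difference between the genotypes' cold changes was −3.37 bp (permutation p = 0.239), so a different response was not shown.

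The shift was one of near-complete against shortened fragments. Those of 140 to 150 bp made up 33.4%, 32.2%, 37.7% and 25.8% of flank fragments in *vrn1-4* FRI cold, 29.3%, 23.5% and 31.4% in *vrn1-4* FRI warm, 46.4%, 47.5%, 47.0% and 45.4% in WT FRI cold, and 33.9%, 25.3% and 39.5% in WT FRI warm. WT FRI cold stood above every other library. The difference was not particular to the flank. In the rest of *FLC* the fragments of WT FRI cold were also longer, with 4.16 bp for WT FRI cold minus WT FRI warm and −4.39 bp for *vrn1-4* FRI cold minus WT FRI cold (exact p = 0.0286 for both). Taken relative to the rest of *FLC* in each library, the flank's differences were 0.386 bp (exact p = 0.343) and −0.274 bp (exact p = 0.6). Unlike the midpoint profile, WT FRI cold replicate 1 was like its group in length, and without it the flank differences were 4.57 bp (exact p = 0.1, the smallest possible) and −4.68 bp (exact p = 0.0286). The part of fragment length in the bin differences was not tested beyond settings restricted to long fragments.

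The peaks were next compared by the share, the mean midpoint and the spread (SD) of the midpoints within 50 bp of each, with 36 exact permutation tests for each quantity. Unadjusted p-values under 0.05 were found in 3, 4 and 6 tests, and 0 passed after adjustment, with smallest adjusted p of 0.343, 0.257 and 0.171. No exact p could fall below 0.0286, or below 0.1 for 3 against 3 libraries. An adjusted p under 0.05 would thus have needed most of the 36 tests to stand at the smallest p, so the adjusted result cannot show that the peaks were alike. The values are therefore given as descriptions of where the libraries lay. At n7 the mean midpoint lay 2108.9, 2111.2, 2110.2 and 2106.5 bp upstream in *vrn1-4* FRI cold and 2112.4, 2112.1, 2115.0 and 2115.2 bp in WT FRI cold. It lay at 2106.0, 2106.4 and 2108.0 bp in *vrn1-4* FRI warm and at 2111.3, 2112.2 and 2113.0 bp in WT FRI warm. In both temperatures every *vrn1-4* FRI library was nearer to the TSS than every WT FRI library, with a mean difference of −4.47 bp after cold (exact p = 0.0286, adjusted 0.257) and −5.37 bp in the warm (exact p = 0.1, the smallest possible).

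At n3 the order of the genotypes was the opposite. The mean midpoint lay at 1368.0, 1366.8, 1367.0 and 1366.7 bp in *vrn1-4* FRI cold, 1370.8, 1370.0 and 1371.1 bp in *vrn1-4* FRI warm, 1368.7, 1359.2, 1360.2 and 1361.1 bp in WT FRI cold, and 1363.4, 1365.8 and 1364.3 bp in WT FRI warm. Apart from WT FRI cold replicate 1, which lay among the *vrn1-4* FRI libraries, all WT FRI midpoints were nearer to the TSS. The mean difference was 6.11 bp in the warm (exact p = 0.1) and 4.79 bp after cold (exact p = 0.143), and 6.92 bp without that library (exact p = 0.0286). In *vrn1-4* FRI the cold midpoints lay nearer to the TSS than the warm ones, with a mean difference of −3.52 bp and no overlap (exact p = 0.0286, adjusted 0.257). The share at n3 was 1.99%, 2.30%, 2.23% and 2.02% in *vrn1-4* FRI cold against 1.66%, 1.76% and 1.65% in *vrn1-4* FRI warm, again with no overlap (exact p = 0.0286, adjusted 0.343).

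At n6 midpoints were more tightly placed in *vrn1-4* FRI warm than in the other groups. The spread was 26.8, 27.1, 27.0 and 26.9 bp in *vrn1-4* FRI cold, 24.9, 24.8 and 25.3 bp in *vrn1-4* FRI warm, 27.6, 29.2, 28.4 and 28.1 bp in WT FRI cold, and 28.6, 26.2 and 27.2 bp in WT FRI warm. Cold exceeded warm by 1.92 bp in *vrn1-4* FRI, and *vrn1-4* FRI cold minus WT FRI cold was −1.37 bp (exact p = 0.0286, adjusted 0.171, for both). The low spread in *vrn1-4* FRI warm was not particular to n6. At n2 its libraries lay at 19.71 to 20.68 bp, below every other library. Its mean spread was also the lowest of the groups at n3, n5, n8 and n9, but the highest at n4 and n7.

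**Figure D5:**
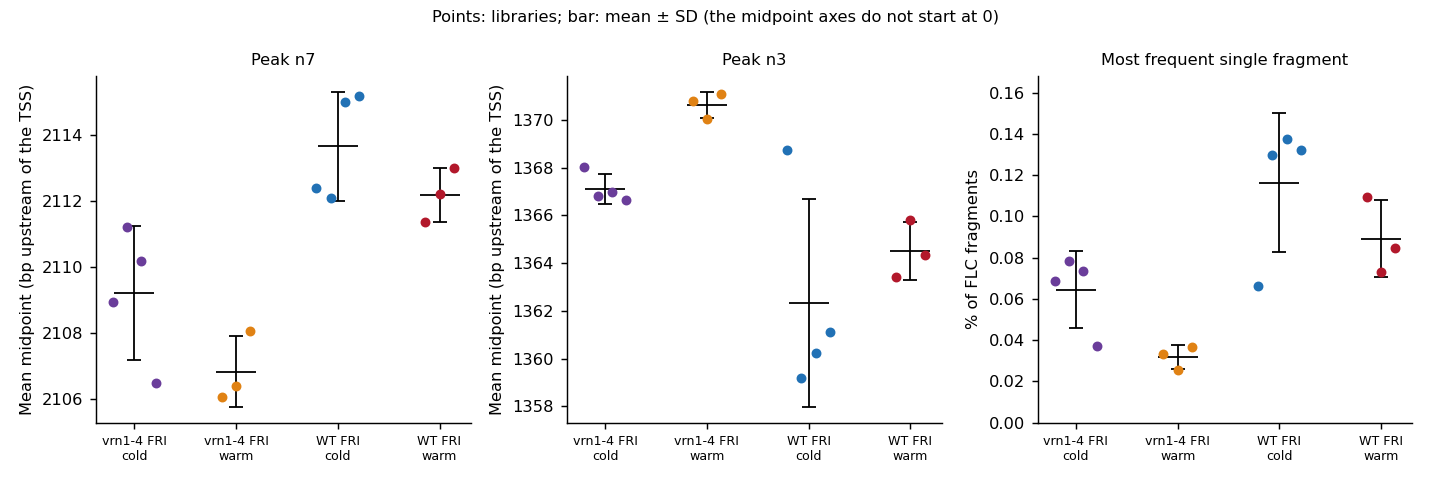
Mean midpoint of the fragments at n7 (left) and n3 (middle), in bp upstream of the TSS on axes that do not start at 0, and share of fragment 1 in percent of *FLC* fragments (right). Points are libraries and bars the mean ± SD; at n7 the *vrn1-4* FRI libraries lie at 2106.0 to 2111.2 bp and the WT FRI libraries at 2111.3 to 2115.2 bp.

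Single fragments were examined next. Over all libraries 35805 distinct fragments had their midpoint in the flank, of which 540 were seen in all 14 libraries and 11356 in 1 library. Fragment 1, of 144 bp, spans 1314 to 1457 bp upstream and so covers n3, with its midpoint at 1385.5 bp. It made up 0.0687%, 0.0783%, 0.0736% and 0.0372% of *FLC* fragments in *vrn1-4* FRI cold, 0.0332%, 0.0255% and 0.0366% in *vrn1-4* FRI warm, 0.0661%, 0.130%, 0.137% and 0.132% in WT FRI cold, and 0.110%, 0.0731% and 0.0846% in WT FRI warm. In the warm the genotypes did not overlap and *vrn1-4* FRI had 0.357 of the WT FRI share (exact p = 0.1, the smallest possible). After cold the ratio was 0.554 (exact p = 0.114), with an exact p of 0.0286 without WT FRI cold replicate 1. The cold share was 2.03 times the warm share in *vrn1-4* FRI (exact p = 0.0571) and 1.31 times in WT FRI (exact p = 0.229). Over the 12 tests on 3 fragments the adjusted p-values were 0.457 or more. With so few libraries, these could pass only if most of the 12 tests stood at the smallest exact p.

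Fragments 2 and 3, of 142 and 146 bp, cover n2. Fragment 2 ranged over 0.0394% to 0.0824% in *vrn1-4* FRI cold, 0.0459% to 0.0709% in *vrn1-4* FRI warm, 0.0382% to 0.0658% in WT FRI cold and 0.0230% to 0.0940% in WT FRI warm. Fragment 3 ranged over 0.0422% to 0.0583%, 0.0445% to 0.0534%, 0.0312% to 0.0499% and 0.0437% to 0.0606% in the same groups. The groups overlapped for both.

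The 23-bp stretch of alternating A and T, 2005 to 2027 bp upstream, was contained whole in very few fragments. Fragments that contained the whole of it made up 0.00160%, 0.00145%, 0.00150% and 0.00055% of *FLC* fragments in *vrn1-4* FRI cold, 0%, 0.00108% and 0.00119% in *vrn1-4* FRI warm, 0.00271%, 0.00808%, 0.00362% and 0.00436% in WT FRI cold, and 0.00245%, 0% and 0.00536% in WT FRI warm. Fragments that touched any of it made up 0.0198% to 0.138% over the 14 libraries. The typical 23-bp stretch of the flank was contained in 0.529% to 0.787%. The stretch is visible as capitals in the sequence of the bin of 2001 to 2100 bp. A second tract of this kind in the captured region, of 21 bp, was contained in 0.0325% to 0.0885%, and 5 shorter ones of 8 to 10 bp had medians of 0.558% to 1.02%.

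The run of 17 T from 2346 to 2362 bp, was contained in more fragments than the TA tract but in fewer than the typical stretch. Fragments containing it made up 0.321% to 0.522% of *FLC* fragments (median 0.434%), against 0.557% to 0.824% (median 0.741%) for the typical 17-bp stretch of the flank. A run of 10 bp from 1879 to 1888 bp lay at the centre of n6 and was contained in 1.28% to 1.73%. Of the 15 bins, 3 held AAAAAAAA on either strand, against 13.7% of the 95 such windows of the captured region and 6.80% of those of chromosome 5. TATATATA was held by 1 of the 15, against 8.42% and 2.82%. Over the 15 bins the A and T content and the mean share had a Pearson r of −0.55, which is a description over bins of the same libraries.

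The ends of the flank fragments were rich in A and T at the cut. A or T was the first base inside the fragment in 88.2% to 93.0% of fragment ends, and the first base outside in 72.5% to 80.3%. At the 2nd base inside it was only 32.4% to 39.2%, and at the 30th base 69.1% to 70.7%, near the 69.6% of the flank itself. The first base outside was A or T in 79.2% of ends in WT FRI cold and 74.8% in WT FRI warm (two-sided exact permutation p = 0.0286, adjusted 0.229 over 8 tests), and no other of these tests had an unadjusted p under 0.05.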

How the data were processed

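Capture baits enriched MNase-digested DNA of the *FLC* locus in 14 libraries. According to the study's methods, the authors trimmed reads with fastp, aligned them to TAIR10 end to end with Bowtie2, discarded reads with a base quality under 10 and used SAMtools 1.5. Whether duplicates were removed is not given in the sources used here. The authors deposited, for each distinct fragment of 100 to 150 bp in each library, its fraction of that library's *FLC* fragments, so that every library sums to 1. These fractions are not read counts and no interval for counting error could be given. Replicates were not pooled.

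A fragment belonged to the flank when its midpoint lay from 3180449 to 3181949 on chromosome 5 (TAIR10), 1001 to 2501 bp upstream of the TSS at 3179448. Here, fractions were summed by midpoint, printed as percentages and compared by two-sided exact permutation tests over libraries. Shares of 100-bp bins were tested with limma 3.58.1 (R 4.3.3) on log2 of the fraction plus 0.0001, in a model of all 4 groups over the 97 *FLC* bins with a mean of at least 0.0001, and Benjamini-Hochberg adjusted p-values were called under 0.05. Peaks were maxima of the 51-bp smoothed mean profile at least 120 bp apart. Correlations between libraries used 10-bp bins of shares in the flank and 100-bp bins on the log2 scale outside it. Tables were handled with python 3.11.15, pandas 2.3.3, numpy 2.4.6 and scipy 1.17.1, and the scripts were tested on simulated data. Alternatives changed the pseudocount, the minimum share, the bin and window width, the fragment length, the counting of distinct fragments, the groups fitted, the replicate block and the libraries included.

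Named bins were the 2 with the highest and 2 with the lowest mean share and those past the threshold in any comparison (7 did, and the 6 with the smallest p were taken, the other being among the lowest). All 9 peaks and the 3 most frequent fragments were named. The members and lists were chosen with earlier results of these data known.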

Additional observations from a re-analysis of the deposited data

Results flagged for a closer look

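In groups of 4 libraries, a value was singled out when its gap to the nearest other value took up more of the range of its group than Dixon's 95% limit. Of 94 groups of values checked, 5 were singled out, close to the 1 in 20 that chance gives. WT FRI cold replicate 1 accounted for 3 of them. Its share of fragment 1 was 0.0661%, against 0.130% to 0.137% in the other WT FRI cold libraries. Its share of the n3 window was 1.93%, against 2.63% to 2.77%, and its spread of midpoints at n7 was 21.01 bp, against 17.2 to 17.9 bp. This is the library whose midpoint profile stood apart from its group. The other 2 belonged to *vrn1-4* FRI cold replicate 4. Its mean midpoint at n4 lay 1567 bp upstream, against 1561 to 1562 bp in the other *vrn1-4* FRI cold libraries, and its spread at n1 was 17.6 bp, against 16.0 to 16.2 bp.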

How the results depend on the processing

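Depth is unknown, the WT FRI warm group holds the libraries with the fewest distinct fragments, and 3 against 3 libraries cannot reach an exact p below 0.1. Of the 328 alternatives run for the summary values, 281 were counted as the same as the main result, as were 294 of the 491 for the other results. For single values this meant the same direction and side of the threshold. For numbers of bins or peaks passing it meant only an equal or similar number. For the flank share without WT FRI warm replicates 1 and 2 it meant a shift smaller than the SD of that group. The fits for the 140 to 150 bp class were chosen after seeing the data. No cause was tested for the changes below.

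For the flank share, the WT FRI cold difference was 1.14 points among fragments of 140 to 150 bp (exact permutation p = 0.0286). Leaving out WT FRI warm replicates 1 and 2 gave 0.294 for WT FRI cold minus warm, −1.10 for *vrn1-4* minus WT FRI in the warm and 0.423 for the difference of the cold changes. Counting each distinct fragment once turned the genotype difference after cold to 0.0421. The difference of the cold changes was −0.177 for fragments of 120 to 150 bp and −0.597 for 140 to 150 bp, and without single libraries it ranged from −0.0886 to 0.563. The density ratio was above 0 on the log2 scale, 1.17, only against the promoter.

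For mean length relative to the rest of *FLC*, the differences were 0.386 bp (WT FRI cold minus warm), −0.466 bp (*vrn1-4* FRI cold minus warm), 0.578 bp (genotypes in the warm) and −0.274 bp (genotypes after cold). Without single libraries the length differences themselves ranged from 3.05 to 5.84 bp for WT FRI cold minus warm and from −2.79 to 0.000687 bp for the genotypes in the warm.

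The numbers of flank bins passing changed most. For the genotypes in the warm (6, beside 37 of the 97 *FLC* bins) they were 3 (31 of 97) with only those groups fitted, 1 (9 of 97) with distinct fragments counted once, 2 (28 of 96) for 120 to 150 bp, 2 (22 of 96) for 140 to 150 bp and 2 to 6 without single libraries. For the genotypes after cold (4, beside 45 of 97) they were 2 (38 of 86) with a minimum mean share of 0.002, 0 (5 of 97) with distinct fragments counted once and 0 to 9 without single libraries. For cold minus warm (0) they were 0 to 3 without single libraries in each genotype. With bins laid from the far end of the captured region, 4 flank bins passed for the genotypes in the warm (35 of 96). After cold 4 passed as well (41 of 96).

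Whether replicate numbers pair the libraries could not be decided from 3 or 4 same-numbered pairs in a comparison, and the main tests were unpaired. Same-numbered deviations correlated above 0.1 in 0 of 3 pairs for WT FRI cold and warm, 2 of 3 for *vrn1-4* FRI, 1 of 3 for the genotypes in the warm and 3 of 4 after cold. Pairs of different number did so in 4 of 9, 3 of 9, 3 of 6 and 5 of 12, in the same order. With the replicate block, 1 flank bin passed for *vrn1-4* FRI cold minus warm (7 of 97 *FLC* bins) and 1 for the genotypes after cold (24 of 97), where replicates 1 to 3 gave 0 in the flank without the block (3 and 21 of 97). The blocked length differences were 4.63 bp for WT FRI cold minus warm (exact p = 0.25) and −4.66 bp for the genotypes after cold (exact p = 0.125), each the smallest p possible.

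Single values that turned their direction were these. With distinct fragments counted once, the log2 genotype difference was −0.0397 at 1101 to 1200 bp in the warm and 0.0375 at 1501 to 1600 bp after cold, the n1 midpoint difference after cold 0.789 bp, the n6 midpoint change in *vrn1-4* FRI −0.833 bp, the n4 spread change in WT FRI 0.0473 bp and the n7 spread change in *vrn1-4* FRI 0.337 bp. The n1 midpoint difference was 0.490 bp for 120 to 150 bp, the n4 spread change 0.0280 bp in windows of 73 bp, and the genotype difference at 2001 to 2100 bp after cold −0.35 for 140 to 150 bp. Without single libraries, fragment 2 ranged from −0.0192 to 0.0163 points for WT FRI cold minus warm and from −0.0185 to 0.0170 for the genotypes in the warm, and fragment 3 from −0.000405 to 0.00494 for *vrn1-4* FRI cold minus warm and from −0.00432 to 0.00411 for the genotypes in the warm.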
